A study of Sus scrofa with 13 samples.

Results

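In longissimus dorsi, the long skeletal muscle of the back, 47 Ensembl genes fell steadily over the 3 stages sequenced, out of 21607 Ensembl genes measured in 13 pig RNA libraries. They were selected on the muscle values alone, measured as RPKM (reads scaled to feature length and library depth). Each had at least 5 RPKM at day 0, at least 2 times as much at day 0 as at day 30, and at least 2 times as much at day 30 as at day 240. A gene symbol was found for 26 of them, and the other 21 are given by their Ensembl identifier. The fall in muscle is therefore how these genes were chosen and is given as a description, while the other organs and the mixtures played no part in the choice.

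The single-tissue libraries came from Guizhou mini-pigs, a small Chinese breed, with no treatment named. At 240 days, 8 organs were sampled besides muscle (adipose tissue, heart, kidney, liver, lung, ovary, spleen and testis), and muscle was sampled at day 0, day 30 and day 240. The remaining 2 libraries pooled RNA of several breeds and time points, 1 from tissues in general and 1 from muscle, whose labels name longissimus dorsi in one field and several muscle tissues in another. All were made from RNA depleted of ribosomal RNA by a paired-end protocol that keeps the strand, either SMART or dUTP, and which of these was used for which library was not given in the sources used here. Each tissue, stage and mixture had 1 library, and neither the number of animals behind a library nor their sex was given. Testis and ovary come from animals of different sex, so the organs were not all from the same animal. Age, animal and library preparation therefore cannot be told apart, and no difference has a replicate check.

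After birth, skeletal muscle grows by enlarging existing fibres, and fetal isoforms of contractile proteins are replaced by adult ones. The connective tissue between the fibres, made largely of collagens and matricellular proteins secreted by fibroblasts, is laid down most actively while the muscle is growing. The newborn also passes from placental glucose to milk fat, and enzymes that steer muscle towards fat respond to feeding and fasting throughout life. Bulk RNA measures all of these together, so fewer cells of a type and less RNA per cell cannot be told apart.

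The libraries held 21685316 to 38581416 reads by the RPKM denominator in the single tissues, and 63015726 and 108337358 in the muscle and tissue mixtures. Between 3620348 reads (muscle at day 30) and 12394421 reads (testis) were counted on listed features in the single tissues. Of 52 marker genes of the 9 tissues, a list chosen after values had been seen, 51 were highest in the tissue they mark, the exception being TBX5 of heart. Liver markers summed to 5.90% of their liver level in lung and to at most 0.385% in the other organs, a value given again below for the gene it touches.

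With RPKM as deposited, a fall between day 0 and day 30 was common among expressed genes and a fall between day 30 and day 240 was rare, so the second condition of the rule left out most genes. Of the 2476 Ensembl genes with at least 5 RPKM at day 0, 60.7% were at least 2-fold lower at day 30. Only 4.93% were at least 2-fold lower at day 240 than at day 30, 8.08% were at least 4-fold lower at day 240 than at day 0, and 1.9% met the whole rule. On the log2(RPKM + 0.1) scale, the median change of the 47 genes was -1.64 for the first interval and -1.79 for the second. The medians of all 2476 genes were -1.23 and 0.55. In the first interval 35 of the 47 fell further than the median gene, and in the second the choice required it of all of them. How common each fall was depended on the scaling. When each library was scaled to the same total, 34.5% of the 2476 genes were at least 2-fold lower at day 30 and 13.9% at least 2-fold lower from day 30 to day 240, with medians of -0.66 and -0.11. With median-ratio scaling the shares were 23.9% and 6.95%, with medians of -0.38 and 0.38. The 153 other genes that were at least 4-fold lower at day 240 were by definition not at least 2-fold lower at both steps. An uneven fall was therefore built in. Their medians were -2.29 for the first interval and -0.08 for the second.

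**Figure D1:**
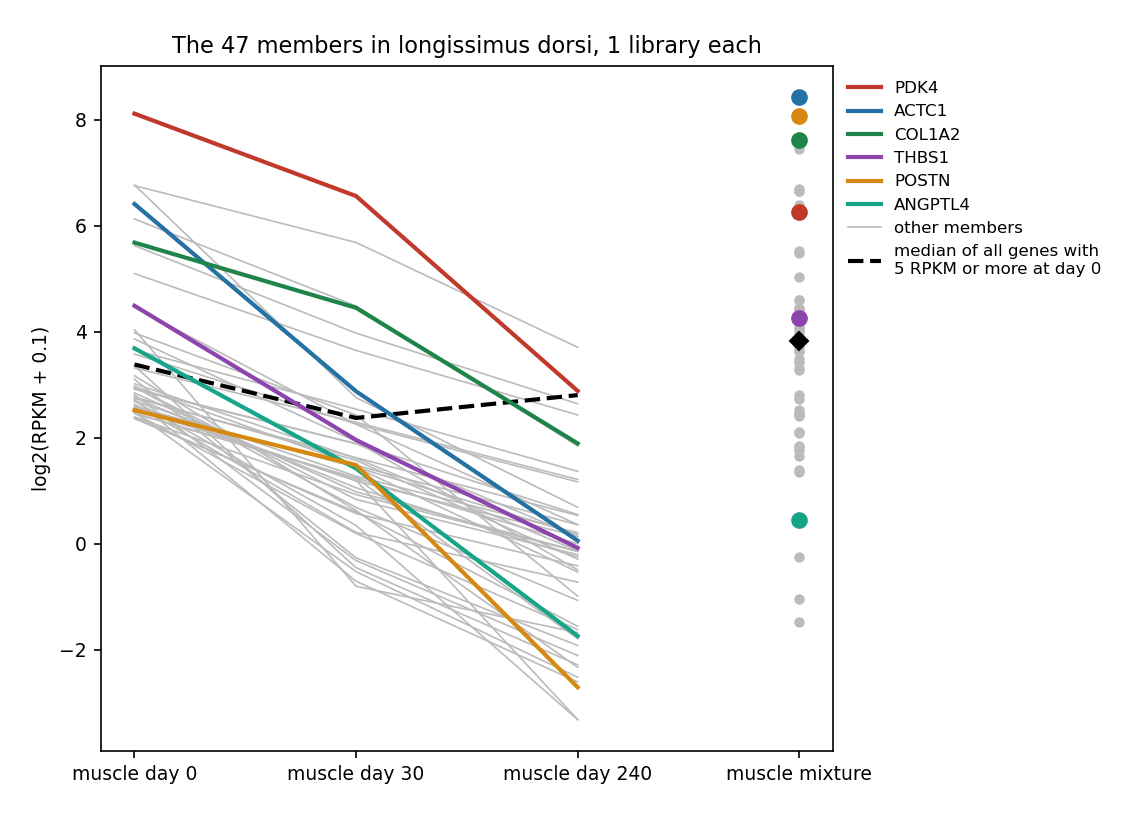
Level of each of the 47 genes as log2(RPKM + 0.1) in muscle at day 0, day 30 and day 240 (lines) and in the muscle mixture (points), 1 library each, with 6 genes coloured and the median of all 2476 genes with 5 RPKM or more at day 0 as a black dashed line and diamond. The members fall at both steps by choice, while the median of all genes falls by 1.23 and then rises by 0.55; in the mixture POSTN, ACTC1 and COL1A2 lie above their day 0 level and PDK4 and ANGPTL4 below it.

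**Figure D2:**
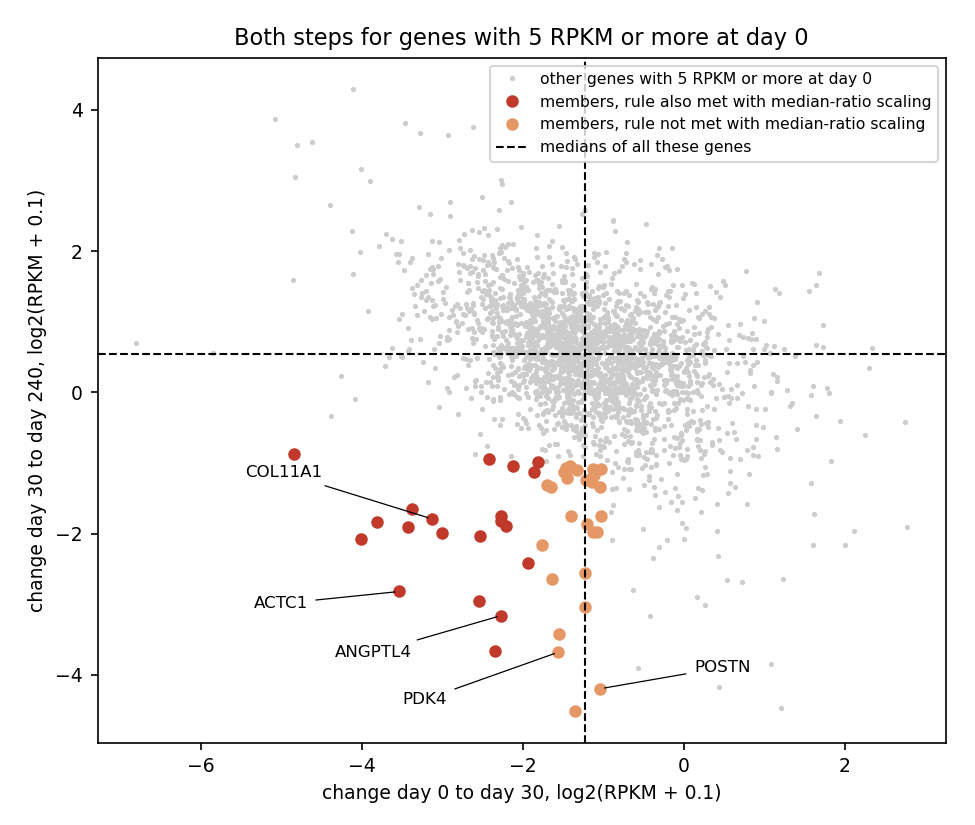
Change from day 0 to day 30 (horizontal axis) against change from day 30 to day 240 (vertical axis), both on the log2(RPKM + 0.1) scale, for the 2476 genes with 5 RPKM or more at day 0, with the medians of all of them as dashed lines. The 47 members occupy the lower left by choice, and the 20 in dark red also met the rule after median-ratio scaling, which mostly set apart those with the larger first fall.

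The size of the set also depended on how the libraries were brought to a common scale. At the same total, 54 genes met the rule, 24 of them among the 47. With median-ratio scaling, which divides day 30 by 0.551 and day 240 by 0.624 relative to day 0, 23 genes met it, 20 of them among the 47. These 20 met the rule under all 3 scalings, and include ACTC1, THBS1, ANKRD1, ADAMTS20, ANGPTL4, COL11A1, RCN3, ENPEP, BTNL9 and CDKN1A. PDK4, COL1A2 and POSTN did not, because their first step was under 2-fold after median-ratio scaling. Together the 47 genes summed to 1119 RPKM at day 0, 324 at day 30 and 68.4 at day 240, that is 0.978%, 0.423% and 0.0561% of the summed RPKM of Ensembl genes.

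The reads behind each RPKM value were recovered from the values, and the 95% intervals given with folds are exact intervals for counted reads. They cover counting error only, and copies made by PCR are not independent molecules. At day 240, 14 of the 47 genes had at least 100 reads, 19 had fewer than 20, 9 had at most 3 and 2 had 0. For 42 genes the intervals of both steps lay above 1, and for 19 both lay above 2. The 2 genes with 0 reads at day 240 have no interval for the second step and are in neither count.

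Among genes of fuel use, PDK4 was the most abundant of the 47. It encodes pyruvate dehydrogenase kinase 4, which holds back the entry of glucose carbon into the citric acid cycle and is raised by fasting. Its level was 277 RPKM at day 0, 94.2 at day 30 and 7.27 at day 240. The first step was 2.94-fold (2.87 to 3.01), and the second was 13-fold (12.1 to 13.9), making 38.1-fold in all (35.6 to 40.9). Relative to the median of all 2476 genes, the log2 changes were -0.33 and -4.23. In the 8 other organs PDK4 ranged from 0.680 RPKM in spleen to 13.9 in adipose tissue with a median of 2.69, so the highest adult organ was far below muscle at day 0.

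ANGPTL4, a secreted inhibitor of lipoprotein lipase, went from 12.8 RPKM at day 0 to 2.57 at day 30 and 0.199 at day 240. It fell further than the median gene at both steps, 4.97-fold (4.20 to 5.91) and then 12.9-fold (7.72 to 23.2). Ovary (27.1 RPKM) and liver (16.3 RPKM) exceeded the day 0 muscle, and heart was lowest at 0.113 RPKM. ETFB, the beta subunit of the flavoprotein that passes electrons from fatty acid oxidation to the respiratory chain, went from 34.1 to 12.4 and 5.28 RPKM. At day 240 muscle had less ETFB than any other organ, the others ranging from 6.18 RPKM in spleen to 40.0 in liver. COX7A2, a subunit of cytochrome c oxidase, went from 11.9 to 4.68 and 2.14 RPKM on 200, 54 and 33 reads and was highest in testis at 63.3 RPKM.

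Other genes of these pathways are given for comparison. In a list of 29 measured genes of lipid use and the fasting response, chosen after values had been seen, 18 had at least 5 RPKM at day 0. PDK4, ANGPTL4 and ETFB made up 3 of these 18 (16.7%). Of the 15 others, 11 were at least 2-fold lower at day 30 and 1 at least 2-fold lower from day 30 to day 240, beside 60.7% and 4.93% of all 2476 genes. ETFA, the partner subunit of ETFB, was at 38.0, 16.6 and 27.7 RPKM, and the fatty acid oxidation enzyme HADHA was at 114, 30.0 and 47.9 RPKM, so both were higher at day 240 than at day 30. A list of 20 oxidative phosphorylation genes, which did not include COX7A2, had all of them at 5 RPKM or more at day 0. Of the 20, 15 (75.0%) were at least 2-fold lower at day 30 and 0 from day 30 to day 240. These shares are not far from those of all genes.

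Among muscle proteins, ACTC1 had the largest fall of those with a symbol and more than 20 reads at day 240. It encodes cardiac alpha-actin, the main sarcomeric actin of fetal skeletal muscle and of the heart. Its level was 84.9 RPKM at day 0, 7.23 at day 30 and 0.939 at day 240, from 4257, 248 and 43 reads. The steps were 11.7-fold (10.3 to 13.4) and 7.70-fold (5.55 to 10.9), 90.4-fold in all (67.0 to 125). Heart had 229 RPKM and kidney, the next organ, 1.23 RPKM. The skeletal actin ACTA1 was at 2012, 3183 and 2998 RPKM, and because the coding sequences of these actins are nearly identical, how reads were split between them is uncertain and was not tested.

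ANKRD1, a titin-binding protein of the sarcomere that responds to mechanical stress, went from 21.9 RPKM at day 0 to 4.66 at day 30 and 1.18 at day 240. Its steps were 4.69-fold (4.03 to 5.49) and 3.94-fold (2.96 to 5.31). It was at 76.5 RPKM in heart and at most 0.273 RPKM in the other 7 organs, a lead of 280-fold over the second organ and the widest among members above 0 in a second organ. ENSSSCG00000006745, with no symbol, shared the outline of these genes, with 109, 6.65 and 1.51 RPKM in muscle and 137 RPKM in heart against 9.80 in kidney. CAPN6, a member of the calpain family that lacks protease activity, went from 7.49 to 3.60 and 1.36 RPKM and was highest in kidney at 4.69 RPKM.

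ACTC1 was the one member from a list of 18 measured genes of developing sarcomere and neuromuscular junction. Of the 12 with at least 5 RPKM at day 0, 3 (25.0%) were at least 2-fold lower at day 30 and 2 (16.7%) at least 2-fold lower from day 30 to day 240, against 60.7% and 4.93% of all genes. The developmental myosin genes went the other way, with MYH8 at 1888, 2442 and 3695 RPKM and MYH3 at 37.3, 80.7 and 96.3 RPKM, although myosin heavy chain genes are close copies of one another and their counts are uncertain for that reason. Of 15 adult sarcomere genes, 2 were at least 2-fold lower at day 30 and 0 from day 30 to day 240. Among 17 myogenic regulators, 2 reached 5 RPKM at day 0, and among 26 cell cycle genes 0 did, so the choice could hardly include them.

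The list of collagens and collagen assembly and the list of other matrix genes each held 2 of the 47 genes, which were 16.7% and 15.4% of their genes with at least 5 RPKM at day 0. COL1A2, the alpha 2 chain of type I collagen, was at 51.2 RPKM at day 0, 21.8 at day 30 and 3.61 at day 240. Its first step of 2.35-fold (2.25 to 2.46) was that of the median gene, and its second was 6.03-fold (5.52 to 6.60). Adipose tissue (309 RPKM) and ovary (227 RPKM) had several times the day 0 level, while liver had 1.0 RPKM and testis 1.17. COL11A1, a minor fibrillar collagen that nucleates thin fibrils, went from 6.89 to 0.701 and 0.131 RPKM. In COL11A1 the early step was the larger, 9.82-fold (7.98 to 12.2) against 5.34-fold (3.39 to 8.74), and no adult organ exceeded 2.56 RPKM.

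Matricellular proteins sit in the matrix and signal to cells rather than bearing load. POSTN, periostin, was at 5.62 RPKM at day 0, 2.69 at day 30 and 0.0526 at day 240, from 1053, 345 and 9 reads. In fold terms the second step was the larger, 2.09-fold (1.85 to 2.36) and then 51.2-fold (26.7 to 113). It was the largest second fold among the genes with reads at day 240. Adipose tissue had 97.2 RPKM and ovary 23.1. THBS1, thrombospondin 1, went from 22.4 to 3.78 and 0.845 RPKM, 5.91-fold (5.41 to 6.48) and 4.47-fold (3.74 to 5.37), and ovary had 201 RPKM.

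Further members act in the matrix or along the route of secretion to it. ADAMTS20, a secreted metalloprotease of the matrix, went from 14.4 to 3.70 and 0.609 RPKM and did not exceed 1.23 RPKM in any of the 8 organs. RCN3, a calcium-binding protein of the endoplasmic reticulum, went from 7.64 to 1.5 and 0.375 RPKM. At day 240 muscle had less RCN3 than any other organ, and ovary had 29.4 RPKM and adipose tissue 13.5.

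In the collagen list the late fall was more widespread than the 47 alone show. Among its genes with at least 5 RPKM at day 0, 10 were outside the 47. Of these 10, 6 were at least 2-fold lower from day 30 to day 240. Of 27 measured collagens and collagen-assembly genes, 12 had at least 5 RPKM at day 0, and of these 5 (41.7%) were at least 2-fold lower at day 30, 8 (66.7%) at least 2-fold lower from day 30 to day 240 and 6 at least 4-fold lower over the whole span. Their median changes were -0.61 and -1.45, against -1.23 and 0.55 over all 2476 genes, of which 60.7% and 4.93% were at least 2-fold lower at these steps. The first of these collagen medians changed sign with median-ratio scaling (0.24), and the second did not (-1.63). COL3A1, which is co-assembled with type I collagen, stayed outside because it went up before it went down, with 24.6, 58.1 and 9.22 RPKM. COL12A1, a collagen that decorates fibrils, stayed outside because its fall was over by day 30, with 14.9, 1.84 and 1.93 RPKM. Of 32 other matrix genes, 13 had at least 5 RPKM at day 0, and 6 (46.2%) and 3 (23.1%) of them were at least 2-fold lower at the first and second step. Of the 11 outside the 47, 4 fell so at the first step and 1 at the second, and the rest were members by choice. DCN, the small proteoglycan decorin, was at 23.1, 16.5 and 25.1 RPKM.

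The sum of fibroblast markers was also lowest in muscle at day 240, though not every marker was. The 7 measured fibroblast markers summed to 125 RPKM at day 0, 113 at day 30 and 49.1 at day 240, with none at 0 in muscle. Without COL1A2, which is also among the 47 genes, they summed to 74.3, 91.7 and 45.5 RPKM, higher at day 30 than at day 0. The collagen COL3A1 and DCN, given above, are among these markers too, and DCN was highest at day 240. The part of fibroblasts in the result was not tested. The 9 adipocyte markers summed to 6.59, 5.28 and 8.73 RPKM in muscle against 1057 RPKM in adipose tissue, with CEBPA and PCK1 at 0 in muscle. The 10 erythroid markers summed to 25.3, 17.5 and 12.7 RPKM, with HBZ, KLF1 and RHAG at 0, and the 11 endothelial markers to 20.9, 19 and 13.5 RPKM, with ESM1 at 0. With RPKM as deposited, both sums were lower at each later stage, as for the 47 genes. The median of all 2476 genes also changed by -1.23 to day 30, on the log2(RPKM + 0.1) scale. For the 2 endothelial markers with at least 5 RPKM at day 0 that median change was -0.65, and 0.19 with median-ratio scaling. The likeness to the 47 genes therefore depended on the scaling, and the part of these cells in the result was not tested.

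The marker lists other than that of fibroblasts held none of the 47 genes, but the choice could hardly include them. In the adipocyte, macrophage and immune, Schwann cell and nerve, and satellite cell lists, 0 genes reached 5 RPKM at day 0. In the erythroid list 1 gene did, in the endothelial list 2, and in the smooth muscle and pericyte list 2. Macrophage and immune markers summed to 4.54, 3.27 and 2.45 RPKM over 14 genes, with CD4, S100A8 and MPO at 0. Schwann cell and nerve markers summed to 4.98, 3.04 and 0.715 RPKM over 7 genes, and satellite cell markers to 7.11, 4.44 and 2.80 RPKM over 8 genes. The 11 smooth muscle and pericyte markers, which include desmin of the muscle fibre itself, summed to 335, 230 and 529 RPKM. The part of these cells in the result was not tested.

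Members that act in signalling, transport and metabolism came from many pathways. PENK, the precursor of enkephalin peptides, went from 7.99 to 2.96 and 0.811 RPKM on 162, 41 and 15 reads. It was listed at 0 in liver, spleen, lung and kidney and was at 10.8 RPKM in adipose tissue and 6.34 in ovary. SLC38A4, a sodium-coupled amino acid transporter, went from 7.43 to 3.59 and 0.997 RPKM and reached 33.4 RPKM in liver. Its 1.48 RPKM in lung was 4.45% of the liver level, close to the 5.90% for liver markers in that library, and the other 6 organs had at most 0.0827 RPKM.

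PPP1R3B, which brings protein phosphatase 1 to glycogen, went from 5.39 to 2.26 and 0.897 RPKM. ENPEP, aminopeptidase A, a membrane enzyme that cleaves angiotensin II, went from 5.42 to 1.04 and 0.225 RPKM. Kidney had 125 RPKM of ENPEP, 54.6 times the next organ. ARRDC3, an alpha-arrestin that acts on membrane receptors, was at 9.85, 4.79 and 2.21 RPKM in muscle and 63.3 RPKM in ovary. BTNL9, a butyrophilin-like membrane protein, went from 7.67 to 1.68 and 0.765 RPKM and was at 10.1 RPKM in adipose tissue.

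CDKN1A, the cyclin-dependent kinase inhibitor p21, went from 5.11 to 1.38 and 0.647 RPKM. ARRDC3 and CDKN1A were the members from a list of 15 measured targets of glucocorticoids and FOXO factors, chosen after values had been seen, of which 8 had at least 5 RPKM at day 0. Of the 8, 3 (37.5%) were at least 2-fold lower at day 30 and 2 (25.0%) from day 30 to day 240. These shares were 60.7% and 4.93% over all 2476 genes. At the second step the 2 were ARRDC3 and CDKN1A, as the choice required, and 0 of the 6 other genes fell so. The muscle ubiquitin ligases FBXO32, at 11.7, 6.30 and 34.5 RPKM, and TRIM63, at 91.4, 80.6 and 205 RPKM, were at least 2-fold higher at day 240 than at day 0. For that rise no share over all genes is given here.

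A few members belong to basic RNA and protein handling. PPAN, a ribosome biogenesis factor, went from 6.10 to 1.06 and 0.504 RPKM, and LSM7, of the ring that binds the ends of small RNAs and decaying transcripts, from 5.94 to 2.17 and 1.0 RPKM. PPIL2, a cyclophilin-like protein, went from 5.14 to 1.80 and 0.802 RPKM, and RABL6, a Rab-like GTPase, from 6.62 to 2.98 and 1.35 RPKM. All 4 were lower in muscle at day 240 than in any other organ. Of 23 ribosomal protein genes, 21 had at least 5 RPKM at day 0, 20 of these (95.2%) were at least 2-fold lower at day 30 against 60.7% of all genes, and 0 were at least 2-fold lower from day 30 to day 240 against 4.93%.

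TCEAL9 and FAM13A complete the members with a symbol. TCEAL9 was at 8.88, 1.44 and 0.0982 RPKM on 99, 11 and 1 reads, so its total fall of 90.4-fold had an interval of 15.9 to 3606. FAM13A was at 7.07, 1.87 and 0.805 RPKM and highest in testis at 19.1 RPKM. Of the lists of imprinted and fetal growth genes (18 measured) and Wnt, TGF beta and BMP genes (23 measured), 1 gene each reached 5 RPKM at day 0 and none was a member.

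The 21 members with no symbol ranged from 5.03 to 109 RPKM at day 0 with a median of 6.71, from 0.472 to 51.2 at day 30 and from 0 to 12.9 at day 240. ENSSSCG00000006681, the second most abundant of them, was at 108, 51.2 and 12.9 RPKM and at 100 RPKM in ovary. ENSSSCG00000017581 was at 69.7, 22.3 and 3.49 RPKM in muscle. It was at 341 RPKM in adipose tissue and 190 in ovary, organs in which COL1A2 was also high. The counts of 8 of the 21 were at most 3 reads at day 240. ENSSSCG00000017579 went from 207 to 26 and 0 reads, at least 63.0-fold lower at day 240 against a floor of 3 reads, and ENSSSCG00000006941 from 115 to 30 and 0 reads, at least 35.0-fold lower.

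Among the adult organs, adipose tissue and liver led more often for the 47 genes than over all genes, while ovary and testis led less often, a difference that 1 library per organ does not allow to be tested. The highest of the 8 organs was adipose tissue for 11 of them (23.4%), against 2.38% of the 2476 genes and 5.23% of the 153 other genes that were at least 4-fold lower at day 240. It was liver for 5 (10.6%), against 1.29%. Ovary led for 18 (38.3%) against 48.8%, testis for 6 (12.8%) against 29.0%, heart for 4 (8.51%) against 11.4% and kidney for 3 (6.38%) against 3.43%. Spleen and lung led for none, against 0.929% and 2.75% of the 2476 genes.

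**Figure D3:**
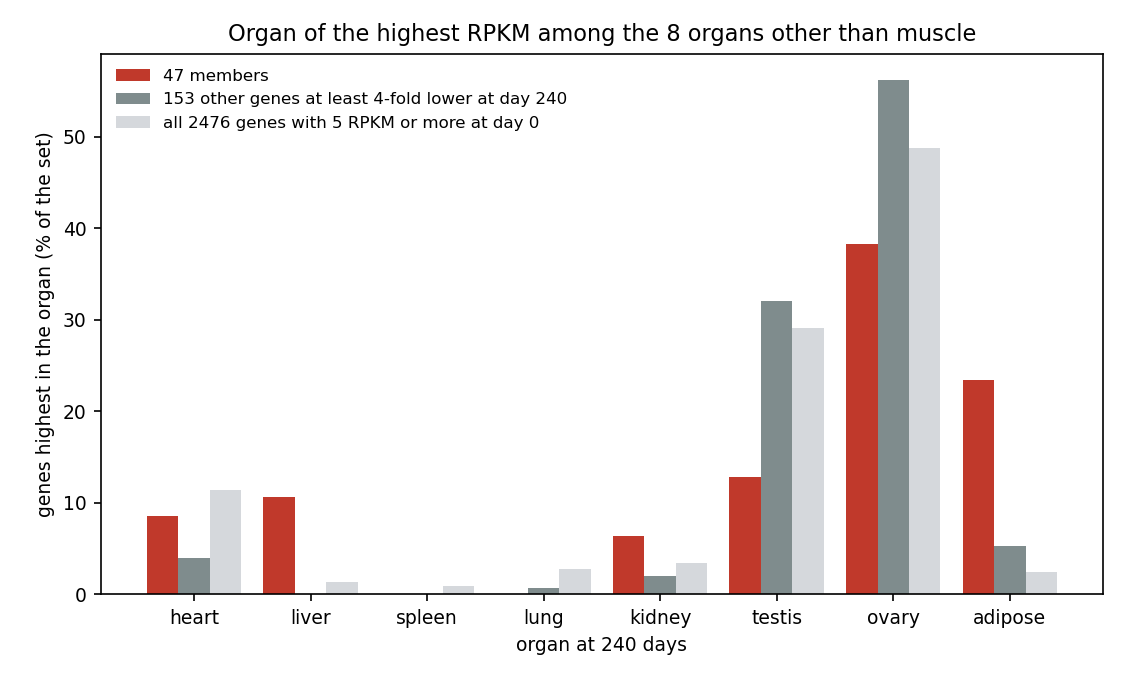
Share of genes (%, vertical axis) whose highest RPKM among the 8 organs other than muscle lay in each organ (horizontal axis), for the 47 members, the 153 other genes at least 4-fold lower at day 240 than at day 0, and all 2476 genes with 5 RPKM or more at day 0. The bar of the members in adipose tissue reaches 23.4%, against 5.23% and 2.38% for the other sets, while their ovary bar, 38.3%, is the lowest of the 3.

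The genes highest in adipose tissue were PDK4, COL1A2, ADAMTS20, PENK, BTNL9, POSTN and 5 with no symbol. In 5 of the 11 the lead over the second organ was at least 2-fold, counting ENSSSCG00000006723, which had 2.56 RPKM in adipose tissue and was listed at 0 in the other 7 organs. For PDK4 and ADAMTS20 the lead was 1.15-fold and 1.06-fold. The 5 genes highest in liver were ETFB, SLC38A4, PPP1R3B and 2 with no symbol, and ETFB in liver was 1.12 times its level in heart. The ovary and testis libraries had the highest summed RPKM, and when each library was scaled to the same total, ovary led for 7 members (14.9%) against 16.8% of all genes and adipose tissue for 17 (36.2%) against 10.7%. Liver then led for 6 members against 4.20% of all genes, spleen for 4 against 12.9% and lung for 1 against 13.0%. The share of members led by adipose tissue was thus above that of all genes with either scaling.

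Summed over the 47 genes, ovary had 1493 RPKM, adipose tissue 1260, heart 641, kidney 391, lung 271, testis 263, liver 227 and spleen 150. As a share of the summed RPKM of Ensembl genes, adipose tissue came first with 2.02%, followed by ovary with 0.719% and heart with 0.570%, and testis came last with 0.149%. A few genes carried these sums, such as ENSSSCG00000017581 and COL1A2 in adipose tissue and ACTC1 in heart. The median member had 9.28 RPKM in ovary, 2.81 in adipose tissue and 0.842 to 2.20 in the other 6 organs. On the log2(RPKM + 0.1) scale it lay below the median of the 2476 genes in every organ, by least in ovary (-0.96) and adipose tissue (-0.98) and by most in testis (-3.70). This was not so with a minimum of 10 RPKM at day 0 for members and all genes alike. The median of the 17 members then lay above that of all such genes in adipose tissue (0.53) and next to it in ovary (-0.018).

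Muscle at day 240 had the lowest value of the 9 organs for 16 members (34.0%), against 12.6% of all 2476 genes, and 1 more, ENSSSCG00000006941, was at 0 in both muscle and heart. The choice required a low value at day 240, so a high share was built in. In 37 of the 47 genes at least 1 adult organ exceeded the day 0 muscle, beside 85.7% of all 2476 genes. Ovary did so most often (22 genes), followed by adipose tissue (13 genes). For these organs taken singly no share over all genes is given here, so the counts are a description only. The 10 genes that no adult organ matched were PDK4, ADAMTS20, CAPN6, COL11A1, PPP1R3B and 5 with no symbol.

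**Figure D4:**
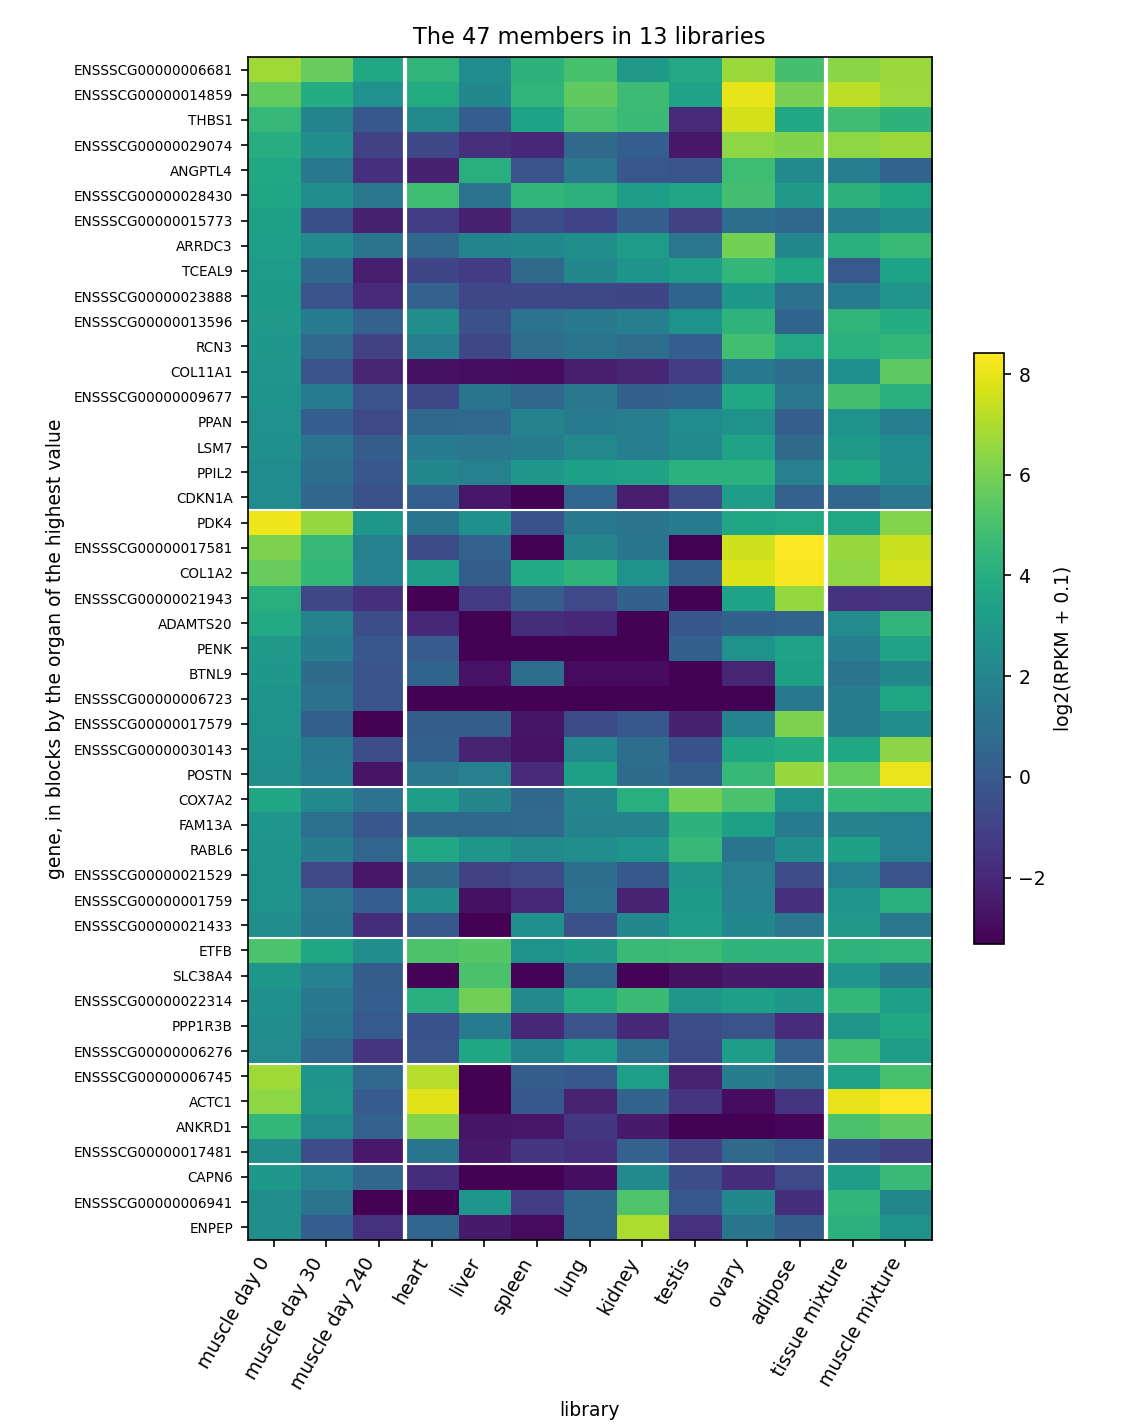
Level of the 47 members (rows, in blocks by the organ of the highest value among the 8 organs: ovary, adipose tissue, testis, liver, heart, kidney) in the 13 libraries (columns), coloured by log2(RPKM + 0.1), with white lines between the muscle stages, the organs at 240 days and the mixtures. The ACTC1 and ANKRD1 rows are bright in heart and dark in most other organs, and the COL1A2 and ENSSSCG00000017581 rows are bright in adipose tissue, ovary and both mixtures.

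In the RNA mixtures, 35 members had at least 5 RPKM in the muscle mixture and 33 in the tissue mixture, against 4 in muscle at day 240. For these counts no share over all genes is given here, and the medians of both sets follow. The choice required low values at day 240, so a contrast with that stage was built in. The median member had 12.3 RPKM in the muscle mixture and 10.9 in the tissue mixture. The medians of all 2476 genes were 14.1 and 11.7 RPKM. The 47 genes summed to 1915 RPKM in the muscle mixture, against 1119 at day 0 and 68.4 at day 240 in the single muscle libraries, and to 1275 RPKM in the tissue mixture. The muscle mixture lay above all 3 stages for 25 members (53.2%), against 60.2% of all genes that were higher there than at day 0. For the other 22 it lay between the stages, and for none below all of them. The mixture pooled breeds and ages whose proportions were not given, so breed and age cannot be told apart in it.

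Most of the named matrix genes and the cardiac actin were higher in the muscle mixture than in muscle at day 0, and THBS1, at 0.854 times its day 0 level, was not. POSTN had 269 RPKM in the muscle mixture, 47.9 times its day 0 level. COL11A1 was 6.63 times, ACTC1 4.05 times, COL1A2 3.82 times and RCN3 2.85 times as high as at day 0. COL3A1, outside the 47, was at 841 RPKM. Among members with no symbol, ENSSSCG00000030143 was 14.4 times its day 0 level.

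PDK4, ANGPTL4 and ETFB were lower in the muscle mixture than at day 0, while COX7A2 was 1.80 times as high. PDK4 had 76.3 RPKM in the muscle mixture, 0.276 times its day 0 level, and ANGPTL4 had 1.25 RPKM, 0.0982 times. ETFB was at 0.626 times its day 0 level, and SLC38A4 (0.408 times), CDKN1A (0.479 times) and FAM13A (0.495 times) were also below day 0. ENSSSCG00000021943 was lowest in these terms, with 0.257 RPKM in the muscle mixture and 16.3 RPKM at day 0, and it was also at 0.234 RPKM in the tissue mixture against 94.0 in adipose tissue.

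Between the mixtures, the median member was lower in the tissue mixture by -0.26 on the log2(RPKM + 0.1) scale, close to the -0.28 of all 2476 genes. The spread was wide, from -3.50 for TCEAL9 to 2.33 for ENSSSCG00000006941. The muscle mixture was at least 2 times the tissue mixture for 13 members (27.7%), against 21.1% of all genes, among them TCEAL9 (12.4 times), COL11A1 (7.75 times), PDK4 (5.82 times), POSTN (5.36 times) and ADAMTS20 (4.26 times). The tissue mixture was at least 2 times the muscle mixture for 10 members (21.3%), against 7.79%, among them ANGPTL4, SLC38A4, ENPEP, RABL6 and PPIL2.

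**Figure D5:**
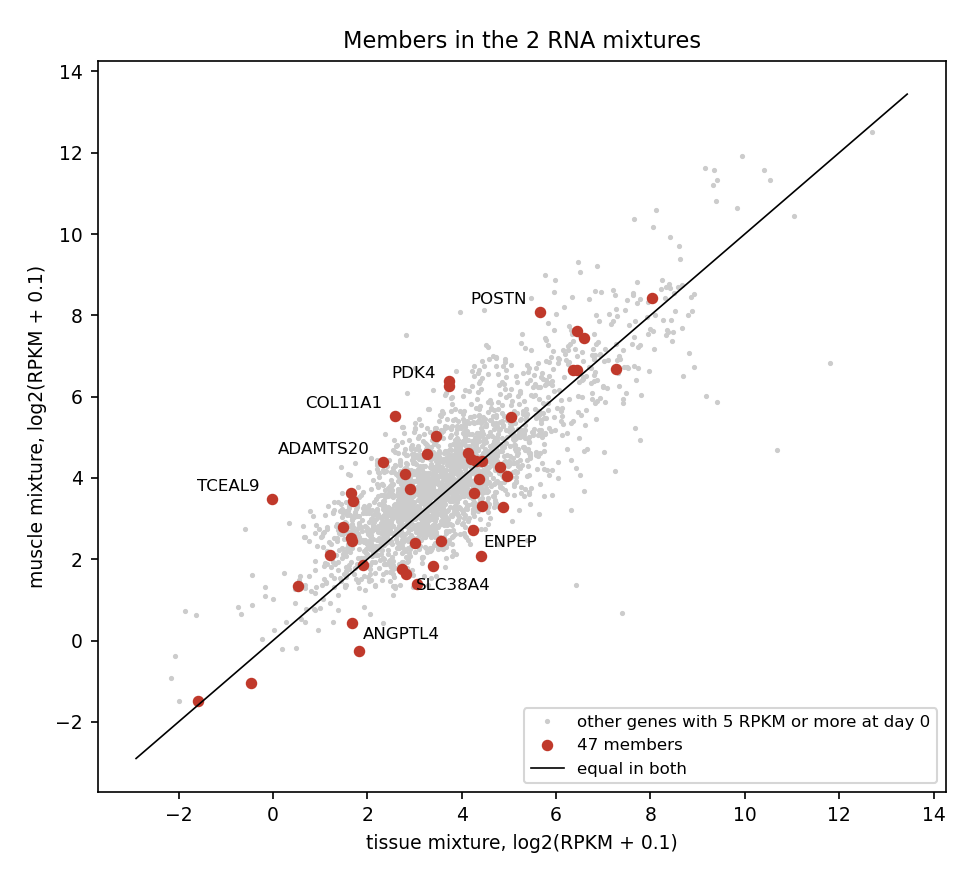
Level in the tissue mixture (horizontal axis) against the muscle mixture (vertical axis), both as log2(RPKM + 0.1), for the 47 members in red and the other genes with 5 RPKM or more at day 0 in grey, 1 library each. The members scatter to both sides of the line of equal values, with TCEAL9 and COL11A1 farthest towards the muscle mixture among those labelled and ENPEP and ANGPTL4 on the side of the tissue mixture.

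Some genes sat close to the limits of the rule. At day 0, ENSSSCG00000006276 (5.03 RPKM), CDKN1A (5.11) and PPIL2 (5.14) were just inside, and DDR1 (4.88), ENSSSCG00000026215 (4.86) and ENSSSCG00000026274 (4.84) just outside. For the first step ARRDC3 (2.06-fold), SLC38A4 (2.07-fold) and CAPN6 (2.08-fold) were just inside and 3 genes with no symbol just outside, at 1.86-fold to 1.90-fold. For the second step PPAN (2.10-fold), CDKN1A (2.14-fold) and ARRDC3 (2.16-fold) were just inside. ATP5IF1, the inhibitor of the mitochondrial ATP synthase, was just outside at 1.95-fold, as were 2 genes with no symbol. For PPAN and CDKN1A the counting interval of that step reached down to 1.28 and 1.18.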

How the data were processed

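Total RNA of 13 pig libraries was measured, 1 per tissue, stage or mixture. The authors mapped reads with TopHat (version 1.3.2 in the submitters' processing notes), assembled transcripts with Cufflinks and counted reads with htseq-count; the genome build of these libraries was not given in the sources used here. The deposited values are RPKM for 32420 features, of which 21607 are Ensembl genes and 10813 lncRNAs, and were used as they stand. Symbols came from a gene table that matched 11654 of the Ensembl genes. Whole reads, the read total of each library and feature lengths were recovered from the ratios of RPKM values within a tolerance of 1e-06, a procedure tested on simulated data.

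The 47 genes and the gene lists were chosen with earlier results of these data known, and the lists of lipid use, of glucocorticoid and FOXO targets and of tissue markers after values had been seen. A marker gene of these lists is not reported here and was left out of its sum. Named genes were, among members with a symbol, the most abundant and most strongly falling, the leading ones of each organ and list, those at the limits of the rule and the extremes of the mixtures; all 26 were named. Genes of the lists with at least 5 RPKM at day 0 served as comparison, and members with no symbol were named after their values were seen. Changes used log2(RPKM + 0.1). With 1 library per group no test was run; folds carry exact 95% intervals for counted reads, and genes with 0 reads a bound at 3 reads. Alternatives were other minima, folds, pseudocounts and scalings (same total, median ratio over 11531 features) and left-out libraries. Python 3.11.15 was used with numpy 2.4.6, pandas 2.3.3, scipy 1.17.1 and matplotlib 3.10.9.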

Additional observations from a re-analysis of the deposited data

How the results depend on the processing

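With 1 library per tissue, stage and mixture, differences between animals or libraries were not measured, and no paired analysis was possible because no group had a replicate. The number of genes that met the rule moved from 47 to 136 with a minimum of 2 RPKM at day 0 and to 17 with a minimum of 10, to 113 with a fold of 1.5 and to 17 with a fold of 3. It was 17 with a pseudocount of 1, 23 with median-ratio scaling and, in alternatives added after the data were seen, 15 when day 0 was rescaled as well and 200 when day 30 was left out and a 4-fold fall to day 240 was asked for. Muscle was the lowest of the 9 organs for 2 of the 17 genes with a minimum of 10 and for 8 of the 17 with a fold of 3. Ovary led for 7 members at the same total, for 5 with median-ratio scaling of all libraries, for 7 with a minimum of 10 and for 7 with a fold of 3. Adipose tissue led for 17 at the same total, for 17 with median-ratio scaling, for 5 with a minimum of 10 and for 3 with a fold of 3, and for 18 without testis and ovary or without ovary alone, the latter added after the data were seen. The median member relative to all genes moved in ovary to -0.018 with a minimum of 10 and -2.40 with a fold of 3, and in adipose tissue to 0.53 and -1.60. The minimum of 10 was here applied to members and all genes alike. The counts at a minimum of 10 and a fold of 3 are smaller in part because fewer genes entered. Of the 39 alternatives to these results, 15 moved them by less than 1.5 times, and the median in adipose tissue, -0.98 as reported, changed sign with a minimum of 10. At day 240, 9 members rested on 3 reads or fewer, which limits how closely their folds are known.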
